A study of Arabidopsis thaliana with 12 samples.

Results

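The cytosolic ribosome of Arabidopsis thaliana is built from the ribosomal RNAs and the proteins of a large (60S) and a small (40S) subunit, and the genes studied here are nuclear genes for those proteins. A list of 59 loci was matched by locus to the probe sets that the platform annotation pairs with exactly 1 gene. Of these loci, 40 had such a probe set, 36 for the large subunit (17 protein families) and 4 for the small subunit (3 S3 genes and 1 S9 gene), out of 16548 genes measured in the series. The other 19 loci are not analysed here. Each of the 40 genes had 1 probe set, and they lie on all 5 nuclear chromosomes (7, 8, 10, 6 and 9 genes on chromosomes 1 to 5). Because so few small subunit genes were in the list, a further 111 measured cytosolic ribosomal protein genes served for the comparison of the subunits.

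Expression was measured in whole seedlings, aged 7 days, from wild-type Col-0 plants and from the mutant gun1-101, whose affected gene, GUN1, encodes a plastid protein with pentatricopeptide repeats that acts in signalling from plastids to the nucleus. Both genotypes were raised on half-strength MS plates that held 0.5 mM lincomycin, which blocks translation on the bacterial-type ribosomes of plastids, or no lincomycin (control). All groups had 2 days of cold stratification at 4 °C, 8 h of light, 5 days of darkness and 2 days of continuous light. The 4 groups, Col-0 control, Col-0 lincomycin, gun1-101 control and gun1-101 lincomycin, each had 3 arrays that the labels call biological replicates. The GUN1 transcript itself is not analysed here, so the genotype labels were not checked by it. Whole seedlings mix organs, so fewer cells of a type and less RNA per cell cannot be told apart.

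In Arabidopsis each cytosolic ribosomal protein is encoded by a small family of near-identical paralogous genes, and the family members can differ in where and when they are transcribed. Cytosolic ribosomes translate the mRNAs of the nucleus, including those for most plastid proteins, and are not the target of lincomycin. Transcripts of ribosomal protein genes are abundant in growing tissue and are known to follow sugar supply, hormones and the growth kinase TOR. Paralogs share much of their sequence, so a probe set of 1 gene can also bind RNA of a near copy, and differences between paralogs given here carry that uncertainty.

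The values are relative log2 expression values. The 40 genes had mean values between 8.52 and 12.19 over the 12 arrays (median 10.68, against 6.65 over all genes). Their range from the lowest to the highest array was 0.25 to 1.47 log2 units (median 0.66, against 0.91 over all genes), so these are well-expressed transcripts that moved little. A gene was called when its limma adjusted p over all 16548 genes was under 0.05.

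A pair of wild-type arrays stood apart from their groups. Expressed as the median difference of the 40 genes from their own means over all arrays, the untreated Col-0 arrays were at -0.05, 0.26 and 0.20 and the treated ones at -0.32, -0.25 and 0.13. For gun1-101 the untreated arrays were at -0.09, -0.05 and -0.14 and the treated ones at 0.05, 0.08 and 0.16. Thus Col-0 control replicate 1 sat below its fellow controls and Col-0 lincomycin replicate 3 sat above its fellow treated arrays, each toward the other group, whereas the gun1-101 groups did not overlap. Col-0 lincomycin replicate 3 was the highest of its group for 36 of 40 genes (36.4% of all genes). Col-0 control replicate 1 was the lowest of its group for 29 of the 40 (37.5% of all genes), a count that does not set it apart by itself, since the treated Col-0 replicate 1 was also the lowest of its group for 29 and the treated gun1-101 replicate 3 the highest of its group for 29. The same arrays differed in a measure that uses none of these genes, the median of the 7083 probe sets that precede the first one with a listed gene. For Col-0 it was 5.37, 4.50 and 4.50 without and 5.07, 5.14 and 4.72 with lincomycin, and for gun1-101 it ranged from 4.88 to 5.10 without and from 4.54 to 4.81 with it. The part of this array measure in the results was not tested beyond a fit that holds it as a covariate. In gun1-101 the measure did not overlap between untreated and treated arrays, so that fit cannot tell it apart from lincomycin there. The counts of calls in each comparison are given with and without the arrays that stand apart. Those arrays were picked by these same genes, so leaving them out widens Col-0 differences and narrows the shared spread by construction. Calls gained that way are no added support. Values of single genes are those of the fit to 12 arrays unless stated otherwise.

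**Figure D1:**
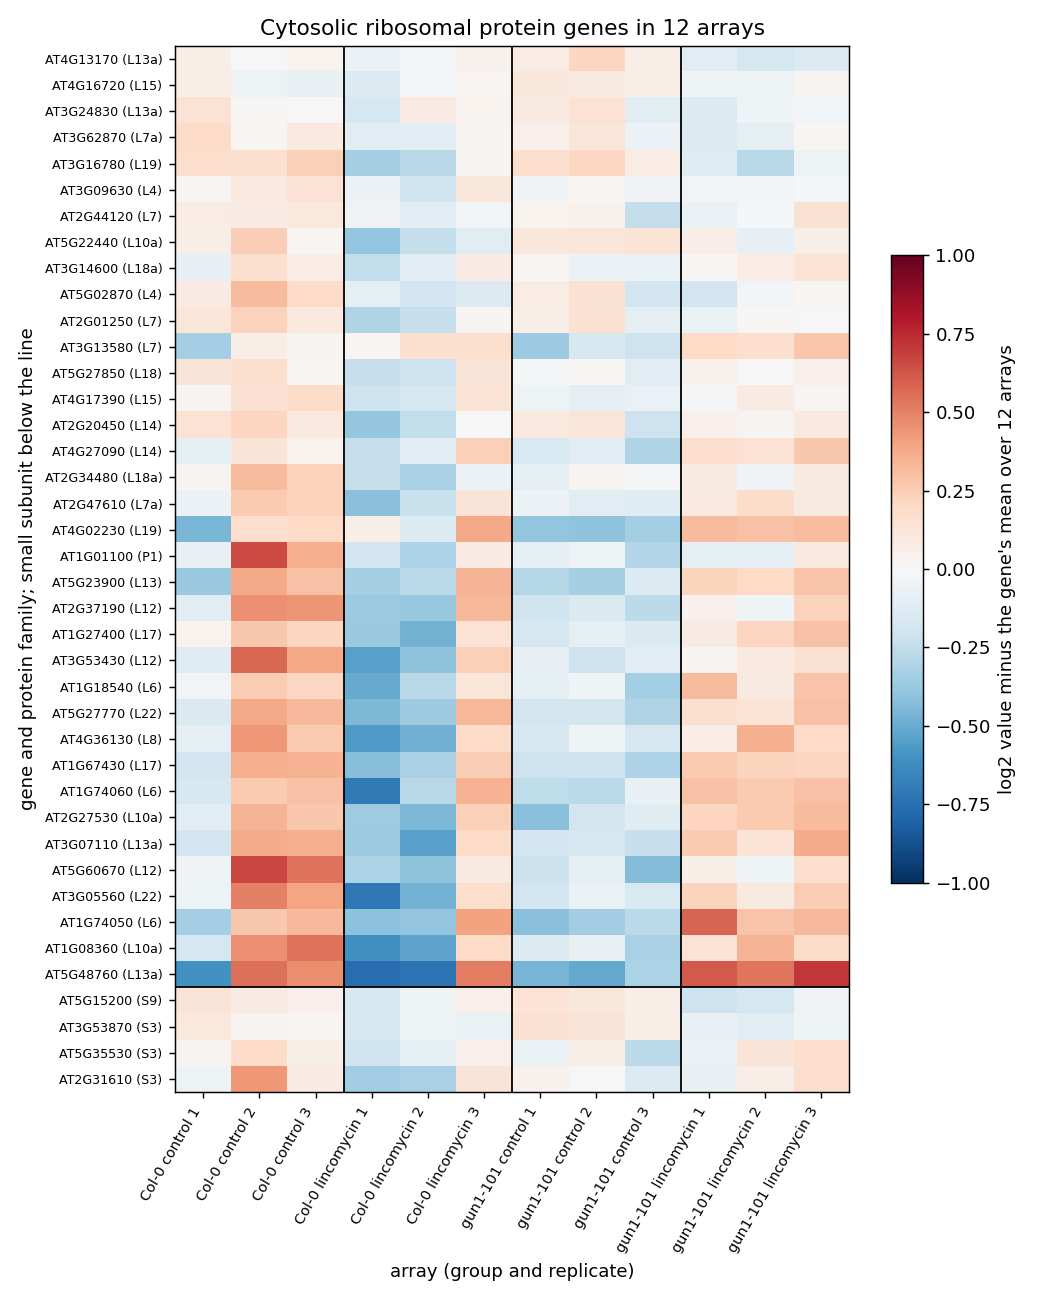
Log2 values of the 40 cytosolic ribosomal protein genes in the 12 arrays, as the difference from each gene's mean over all arrays (colour scale), with genes in rows and arrays in columns by group. Most rows are high in Col-0 control replicates 2 and 3 and low in Col-0 lincomycin replicates 1 and 2, whereas replicate 1 of the Col-0 controls and replicate 3 of the treated Col-0 arrays differ from their groups.

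**Figure D2:**
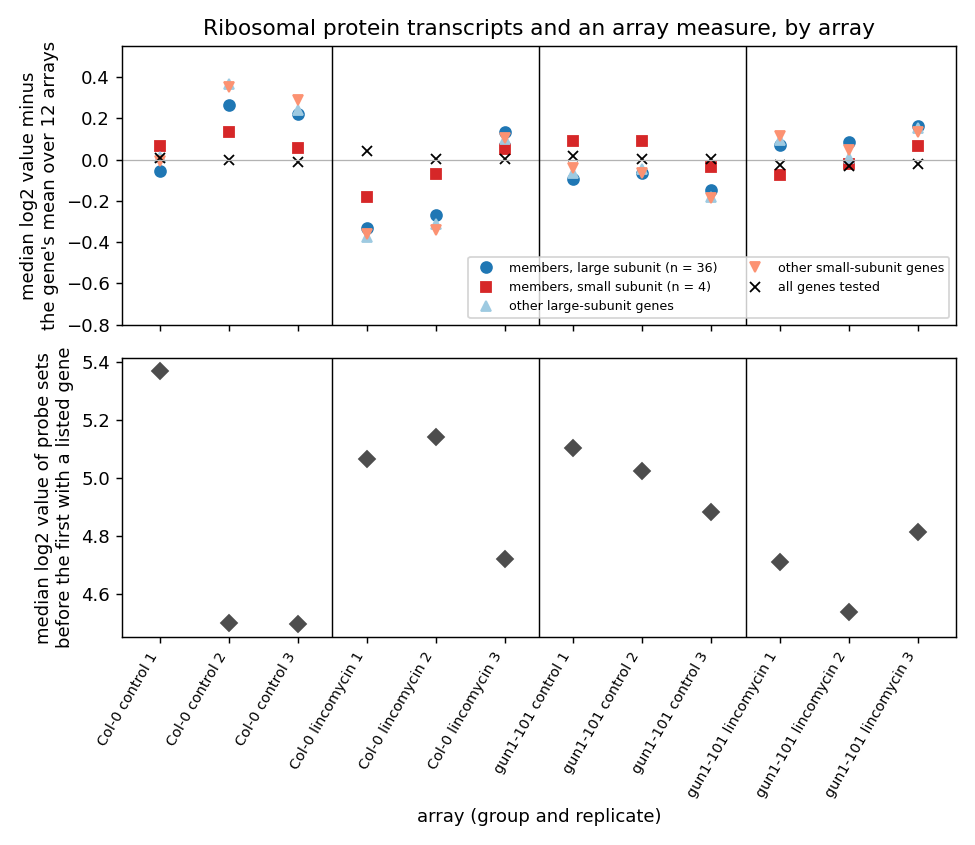
Median difference of ribosomal protein genes from their own means, in log2 units (upper panel), and median log2 value of the probe sets before the first one with a listed gene (lower panel), for each of the 12 arrays. The 40 genes lie at 0.26 and 0.20 in Col-0 control replicates 2 and 3 but at -0.05 in replicate 1, which has the highest array measure (5.37).

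In wild-type seedlings, treated and untreated arrays were compared to see which of these transcripts differ once translation in plastids is blocked. Of the 40 genes, 38 had a negative log2 difference, and the median was -0.34 against 0.02 over all genes. Only AT2G34480, an L18a gene of the large subunit, was called, and it was lower; that is 1 of 40 genes, against 7.19% of all genes called lower and 14.3% called in either direction. A further 13 genes, 14 in all, had an unadjusted p under 0.05, or 35% of the 40 against 28.4% of all genes. The groups did not overlap for 9 genes, all lower with lincomycin, or 22.5% of the 40, where 12.6% of all genes were separate and lower and 27.4% separate in either direction.

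AT2G34480 stood at 10.73, 11.01 and 10.93 log2 units in the Col-0 controls and at 10.46, 10.37 and 10.63 with lincomycin. The groups did not overlap, though control replicate 1 and lincomycin replicate 3 came close to each other. The transcript fell by 0.40 log2 units (limma, SE 0.12, adjusted p = 0.045), a call that was lost when any array other than these was left out. AT5G60670, an L12 gene whose protein sits at the base of the stalk where translation factors bind, read 9.35, 10.05 and 9.93 among untreated arrays and 9.07, 8.98 and 9.47 among treated ones. Control replicate 1 lay below lincomycin replicate 3, so its groups overlapped, and the difference was -0.60 (SE 0.19, limma adjusted p = 0.058). AT3G16780, an L19 gene, had controls at 10.83, 10.82 and 10.90 and treated arrays at 10.33, 10.38 and 10.68. Here the groups were separate and no control stood apart, and the difference of -0.39 (SE 0.12) had a limma adjusted p of 0.059.

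Without Col-0 control replicate 1, 8 of the 40 genes were called lower in Col-0 and none higher, all of them large subunit genes, with a median log2 difference of -0.41 (9.29% of all genes were called lower in that fit). The lowest adjusted p among them belonged to AT5G60670, which fell by 0.82 log2 units (limma, SE 0.17, adjusted p = 0.0067). With Col-0 lincomycin replicate 3 left out as well, 25 were called lower, 24 of the large and 1 of the small subunit, with a median of -0.53, against 13.7% of all genes called lower. Since both arrays lay toward the other group, leaving them out widens the difference by construction, and the calls of the 12-array fit are the ones to be read first.

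The same comparison in gun1-101 gave positive differences for most of the genes. Of the 40, 29 had a positive log2 difference and the median was 0.19, against -0.06 over all genes. With lincomycin 4 genes, all of the large subunit, were called higher and none lower, which is close to the 10.9% of all genes called higher (20.4% in either direction). The groups did not overlap for 21 genes that were higher with lincomycin, where 21.7% of all genes had this pattern, and for 6 that were lower, where the background was 24.2%.

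AT4G02230, an L19 gene whose protein takes part in a bridge between the subunits, was at 11.03, 11.02 and 11.08 in the gun1-101 controls and at 11.74, 11.71 and 11.73 with lincomycin. The arrays of each group were close to each other and far from the other group. Its level rose by 0.68 log2 units (limma, SE 0.18, adjusted p = 0.020), and it was the call that also passed with the array measure as a covariate. AT3G13580, an L7 gene, moved from 9.69, 9.89 and 9.84 to 10.25, 10.22 and 10.33. All its treated arrays lay above all controls, and it rose by 0.46 (SE 0.13, limma adjusted p = 0.029).

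AT1G74050, 1 of 3 measured L6 genes, stood at 8.11, 8.17 and 8.25 in the gun1-101 controls and at 9.10, 8.80 and 8.84 with lincomycin. Again the groups were separate, and the transcript rose by 0.74 (SE 0.23, limma adjusted p = 0.039). AT5G48760, an L13a gene, had the widest range of the 40 genes: 9.82, 9.77 and 9.97 untreated against 10.90, 10.82 and 10.99 treated. The treated arrays were all well above the untreated ones, and the transcript rose 2.07-fold, by 1.05 log2 units (limma, SE 0.34, adjusted p = 0.049). The SE of AT5G48760 comes mostly from Col-0, where its SDs were 0.64 and 0.73 (n = 3) against 0.10 and 0.09 in gun1-101 (n = 3). Leaving out any single gun1-101 array left 0 or 1 of the 40 genes called. Leaving out Col-0 control replicate 1, which enters only through the shared spread, left 5 called higher (14% of all genes), and leaving out both Col-0 arrays that stand apart gave 16 higher and 2 lower, where 16.5% of all genes were called higher and 14.6% lower.

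Setting the genotypes side by side, which share no array in these comparisons, 27 of the 40 genes had a negative difference in Col-0 and a positive one in gun1-101, 11 were negative in both and 2 positive in both. Over all genes 17.8% were negative in Col-0 and positive in gun1-101. No gene of the 40 was called lower in Col-0 and higher in gun1-101 in the 12-array fit, as were 0.254% of all genes. Without both Col-0 arrays that stand apart, which were left out because they lay toward the other group, 13 genes were, against 4.64% of all genes. With the array measure as a covariate 23 had these opposite signs (15.8% of all genes). The medians then drew closer to 0, at -0.22 in Col-0 and 0.07 in gun1-101. That measure differed between treated and untreated gun1-101 arrays without overlap, so this fit can also remove part of the lincomycin difference.

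Whether both genotypes respond alike to lincomycin was tested as an interaction, the response in gun1-101 minus that in Col-0. Its median was 0.46 log2 units over the 40 genes against -0.06 over all genes, and 35 values were positive. By limma none was called, where 6.97% of all genes were, although 22 of the 40 (55%) had an unadjusted p under 0.05, as did 28.3% of all genes. The adjusted p-values of the lowest genes lay just above the threshold. AT1G27400, an L17 gene whose protein lines the tunnel through which nascent chains leave the ribosome, stood in Col-0 at 9.63, 9.86 and 9.81 without and 9.22, 9.12 and 9.74 with lincomycin, and in gun1-101 at 9.42, 9.50 and 9.45 without and 9.68, 9.81 and 9.89 with it. The gun1-101 groups were separate, and in Col-0 lincomycin replicate 3 lay among the controls. Its interaction was 0.74 (SE 0.22, limma adjusted p = 0.064).

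AT5G60670, the L12 gene, had gun1-101 values of 9.17, 9.30 and 8.95 without and 9.44, 9.34 and 9.56 with lincomycin, so its treated arrays were higher in the mutant and lower on average in Col-0. Its interaction was 0.91 (SE 0.27, limma adjusted p = 0.064). PGY1 (AT2G27530), an L10a gene whose protein forms the mobile stalk near the exit site of tRNA and which is known from leaf patterning mutants, had Col-0 values of 10.72, 11.17 and 11.10 without and 10.47, 10.38 and 11.07 with lincomycin. In gun1-101 it was at 10.42, 10.65 and 10.71 without and 11.05, 11.10 and 11.14 with it. The mutant's groups were separate while those of Col-0 overlapped, and the interaction of AT2G27530 was 0.86 (SE 0.26, limma adjusted p = 0.066).

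The value of AT5G48760 was the largest of the 40, at 1.51 (SE 0.48, limma adjusted p = 0.075). In Col-0 it was at 9.68, 10.83 and 10.75 without and at 9.52, 9.54 and 10.79 with lincomycin: control replicate 1 matched the treated level and lincomycin replicate 3 the control level. Without both arrays the interaction of AT5G48760 was 2.31 (SE 0.15, limma adjusted p = 3.5e-05). This gene is among those by which the arrays were picked, so a wider difference and a smaller SE were fixed in advance. The same limit holds for the counts that follow. Over the 40 genes the interaction was called for 20 without Col-0 control replicate 1, all higher (12.1% of all genes were called higher), and for 24 without both arrays, again all higher (16% of all genes), of which 23 belong to the large and 1 to the small subunit.

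**Figure D3:**
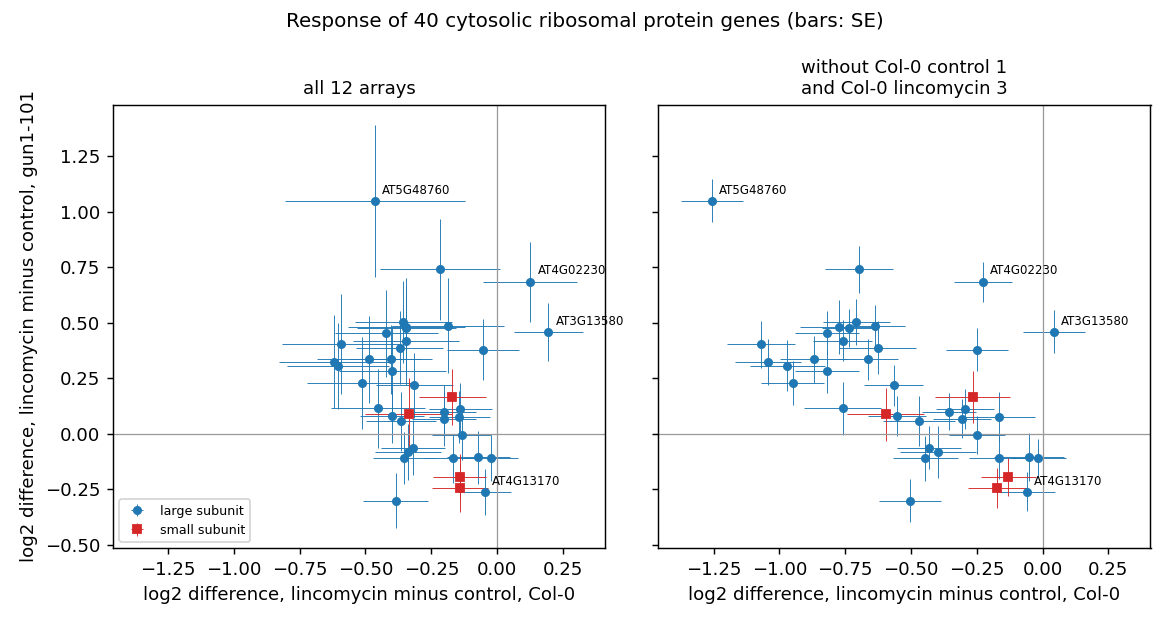
Log2 difference of lincomycin minus control in Col-0 (x axis) and gun1-101 (y axis) for the 40 genes, large and small subunit marked, with bars for the SE, from all 12 arrays (left) and with both Col-0 arrays that stand apart left out (right). With all arrays 27 genes lie in the upper left quadrant, at negative values in Col-0 and positive ones in gun1-101, and without these arrays 28 do, farther to the left.

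Without lincomycin, the comparison of gun1-101 with Col-0 asked what differs with the mutation alone. None of the 40 genes was called by limma, and only 0.0181% of all genes were. Their median log2 difference was -0.22, 35 values were negative, and 5 (12.5%) had an unadjusted p under 0.05, close to the 12.7% of all genes. The groups did not overlap for 13 genes that were lower in gun1-101, where 7.16% of all genes had this pattern, and for 1 that was higher (8.18% of all genes). AT5G60670 was at 9.35, 10.05 and 9.93 in Col-0 and 9.17, 9.30 and 8.95 in gun1-101, with no overlap and a difference of -0.64 (SE 0.19, limma adjusted p = 0.34).

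AT1G01100, a P1 gene for an acidic protein of the lateral stalk, was at 10.95, 11.68 and 11.39 in Col-0 controls and 10.93, 10.98 and 10.74 in gun1-101 controls. Its gun1-101 values overlapped those of Col-0 through Col-0 replicate 1 alone, and it differed by -0.46 (SE 0.18, limma adjusted p = 0.36). AT2G37190, another L12 gene, was at 10.08, 10.65 and 10.63 against 9.99, 10.05 and 9.93. The groups were separate by a narrow step, and the difference was -0.47 (SE 0.20, limma adjusted p = 0.38). Without Col-0 control replicate 1 the median of the 40 genes was -0.30 and 3 were called lower, AT5G60670, AT1G01100 and AT4G02230, where 3.78% of all genes were called lower. Without both arrays 18 were called lower, against 9.9% of all genes. Col-0 lincomycin replicate 3 enters this comparison only through the shared spread, so the step from 3 to 18 calls came with no change in the log2 differences.

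With lincomycin, gun1-101 lay above Col-0 for 36 of the 40 genes, with a median log2 difference of 0.23 against -0.05 over all genes. None was called by limma, where 9.58% of all genes were, and 11 (27.5%) had an unadjusted p under 0.05, close to the 25% of all genes. The groups did not overlap for 5 genes that were higher in gun1-101, against 12.9% of all genes, and for 1 that was lower, against 17.6%. AT5G48760 was at 9.52, 9.54 and 10.79 in Col-0 and at 10.90, 10.82 and 10.99 in gun1-101, which is separate but only just, and differed by 0.95 (SE 0.34, limma adjusted p = 0.11). AT1G27400 was at 9.22, 9.12 and 9.74 against 9.68, 9.81 and 9.89, with 1 array of Col-0 among those of gun1-101, and differed by 0.43 (SE 0.16, limma adjusted p = 0.11).

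AT1G18540, an L6 gene, was at 9.33, 9.55 and 9.95 in Col-0 and at 10.15, 9.92 and 10.12 in gun1-101. Col-0 replicate 3 overlapped the mutant, and the difference was 0.45 (SE 0.17, limma adjusted p = 0.11). For these genes Col-0 replicate 3 was the array nearest to gun1-101. Without Col-0 control replicate 1 alone, which enters this comparison only through the shared spread, 1 gene was called higher (6.86% of all genes). Without both arrays 20 were called higher, against 12.3% of all genes. The 5 comparisons share groups of arrays, so the Col-0 arrays that stand apart enter several of them at once.

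Large and small subunit genes were set side by side as a description. In Col-0 the median log2 difference with lincomycin was -0.35 over the 36 large subunit genes and -0.16 over the 4 of the small subunit, and in gun1-101 it was 0.26 and -0.05. The medians over the genes for S3 and S9, proteins near the entry of the mRNA channel, were therefore nearer to 0, but these genes are few. Not each gene was: AT2G31610 lay at -0.34 in Col-0, close to the large subunit median. Without both Col-0 arrays that stand apart the Col-0 medians were -0.56 and -0.22, and those of gun1-101 were unchanged. The S9 gene AT5G15200 went from 11.34, 11.30 and 11.27 without to 11.05, 11.17 and 11.26 with lincomycin in the wild type, and from 11.35, 11.33 and 11.28 to 11.01, 11.04 and 11.18 in the mutant. Its treated arrays were below the controls in both genotypes, with differences of -0.14 and -0.24 (SE 0.11 each), neither called. Of the S3 genes, AT3G53870 also had negative differences in both genotypes (-0.14 and -0.19), whereas AT2G31610 (-0.34 and 0.09) and AT5G35530 (-0.17 and 0.17) had opposite signs.

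Over the wider set, with 91 large and 60 small subunit genes, the subunits had like medians. In Col-0 these were -0.35 and -0.39 log2 units, with 9 and 8 genes called lower and none higher, where 7.19% of all genes were called lower. In gun1-101 they were 0.19 and 0.16, with 6 large subunit genes called higher and none lower, and 2 small subunit genes higher and 3 lower, where 10.9% of all genes were called higher and 9.51% lower. The order of the medians in Col-0 was thus the reverse of that among the 40 genes. Unlike the 40, whose lowest mean over arrays was 8.52, the wider set held dim genes of both subunits. Examples are the S15 gene AT5G43640 and the L27a gene AT1G12960, with Col-0 control means of 3.08 and 2.93 and Col-0 differences of 0.04 and 0.13. The part of dim genes in these medians was not tested. Without Col-0 control replicate 1, 28 large and 23 small subunit genes were called lower in Col-0 (9.29% of all genes), and without both arrays 60 and 40 (13.7% of all genes).

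Paralogs of 1 family did not always move alike. There were 14 families with several measured genes, holding 35 of the 40. Among the L13a genes, AT5G48760 (-0.46 in Col-0, 1.05 in gun1-101) and AT3G07110 (-0.42 and 0.45) had opposite signs in the genotypes, while AT3G24830 (-0.07 and -0.11) and AT4G13170 (-0.05 and -0.26) did not. AT4G13170 was at 8.84, 8.99 and 8.84 in gun1-101 controls and at 8.66, 8.60 and 8.63 with lincomycin, so that its groups were separate in the direction opposite to AT5G48760. The spread between the lowest and highest L13a gene was 1.31 log2 units in gun1-101 and 0.42 in Col-0, where it was 1.21 without both arrays that stand apart.

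In the L19 pair, AT3G16780 was negative in both genotypes (-0.39 and -0.30) and AT4G02230 positive in both (0.13 and 0.68). The Col-0 value of AT4G02230 turned negative without either of the arrays that stand apart and with array weights, and without both arrays it was -0.23 (SE 0.11, limma adjusted p = 0.16), also not called. The gun1-101 arrays of AT3G16780 were at 10.83, 10.87 and 10.73 without and 10.54, 10.38 and 10.61 with lincomycin, also separate. Among the L7 genes AT3G13580 was positive in both (0.19 and 0.46) and AT2G01250 negative in both (-0.32 and -0.06). AT2G44120 had small differences of opposite sign (-0.14 and 0.08), neither called, and its Col-0 groups were separate. The L10a gene AT5G22440 differed by -0.35 and -0.11, whereas AT2G27530 (-0.36 and 0.50) and AT1G08360 (-0.59 and 0.40) shared the opposite signs.

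Other families were more uniform. The L12 genes AT2G37190, AT3G53430 and AT5G60670 lay between -0.60 and -0.40 in Col-0 and between 0.23 and 0.31 in gun1-101. The L6 genes, AT1G18540 and the neighbouring loci AT1G74050 and AT1G74060, lay at -0.37, -0.22 and -0.35 in Col-0 and at 0.39, 0.74 and 0.48 in gun1-101. Both L17 genes, AT1G27400 (-0.40 and 0.33) and AT1G67430 (-0.34 and 0.48), and both L22 genes, AT3G05560 (-0.62 and 0.32) and AT5G27770 (-0.35 and 0.42), followed the same signs. The L4 genes, whose protein reaches into the exit tunnel, stayed near 0 in gun1-101, with AT3G09630 at -0.13 and 0.00 and AT5G02870 at -0.34 and -0.08. No difference between paralogs was tested.

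The rest of the large subunit genes followed one or the other pattern. AT4G36130, an L8 gene whose protein lies near the peptidyl transferase centre, differed by -0.49 in Col-0 and 0.33 in gun1-101, and the L13 gene AT5G23900 by -0.19 and 0.49. The L7a genes were at -0.31 and 0.22 (AT2G47610) and at -0.17 and -0.11 (AT3G62870). The L14 genes were at -0.36 and 0.06 (AT2G20450) and at -0.05 and 0.38 (AT4G27090), and the L18 gene AT5G27850 at -0.20 and 0.07. The second L18a gene, AT3G14600, was at -0.14 and 0.11. The L15 gene AT4G16720 kept to values between 12.06 and 12.31 over the 12 arrays, while its paralog AT4G17390 was at -0.20 and 0.10.

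**Figure D4:**
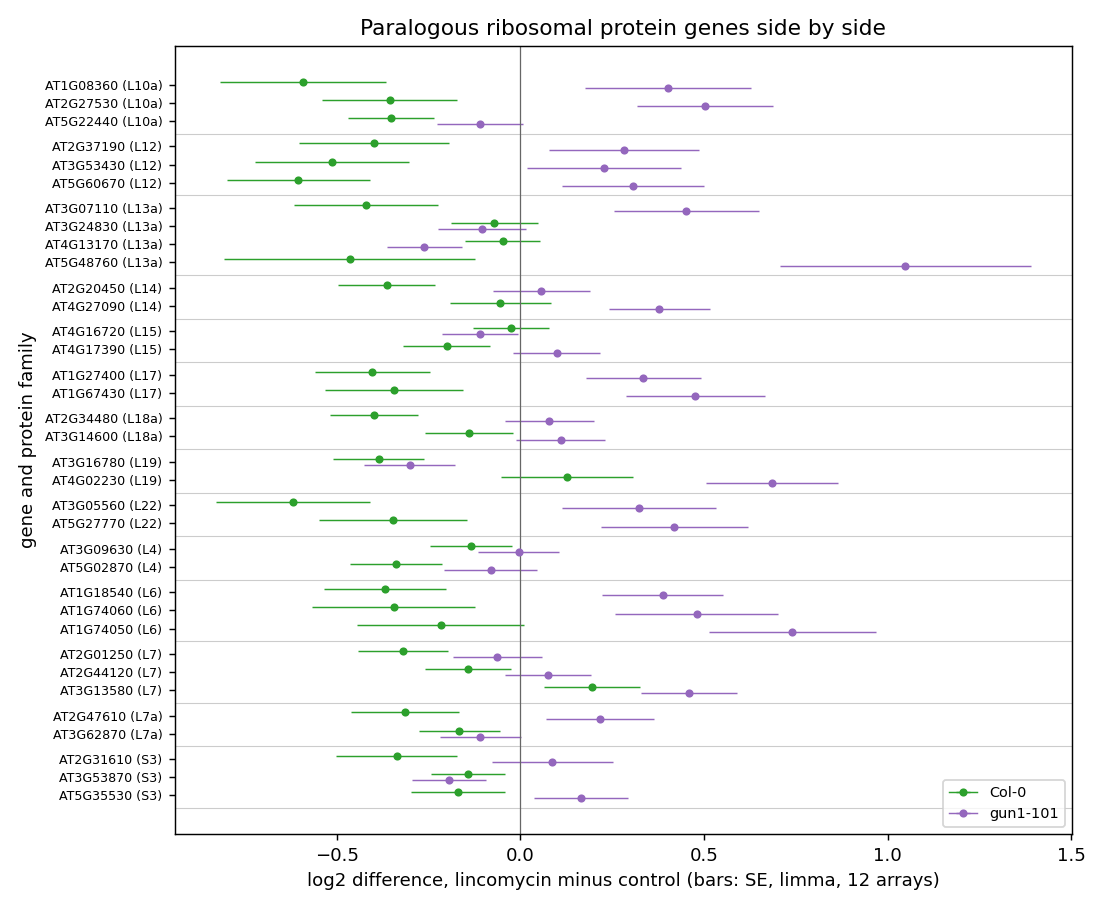
Log2 difference of lincomycin minus control for genes of families with several measured paralogs, in Col-0 and gun1-101, with bars for the SE from limma on 12 arrays. The 4 L13a genes span 1.31 log2 units in gun1-101, whereas the 3 L12 genes lie between 0.23 and 0.31.

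As a description of how the genes vary together, each was correlated with the median of the other 39 over the 12 arrays, which share depth of signal and normalisation. In 23 genes Pearson's r was 0.8 or more, with AT3G05560 (L22) at 0.98, AT5G27770 (L22) at 0.97 and AT1G08360 (L10a) at 0.97. It was under 0.5 in 8 genes. The lowest were AT4G13170 (L13a) at -0.16, AT4G16720 (L15) at -0.04, AT3G53870 (S3) at 0.06, AT3G24830 (L13a) at 0.09 and AT5G15200 (S9) at 0.14. The ranges of these 5 over arrays were 0.39, 0.25, 0.32, 0.32 and 0.34 log2 units in the order given. Of the other 3 with r under 0.5, AT3G62870 (L7a, r 0.31) had a range of 0.33, AT3G13580 (L7, r 0.32) one of 0.64 and AT3G16780 (L19, r 0.44) one of 0.57.

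The 111 other cytosolic ribosomal protein genes gave medians close to those of the 40, at -0.38 log2 units in Col-0 and 0.17 in gun1-101. In Col-0 16 of them were called lower, against 7.19% of all genes, and none higher. The S8 gene AT5G59240 fell by 1.09 (limma adjusted p = 0.0032), the P0 gene AT2G40010, for the core protein of the stalk, by 1.36 (limma adjusted p = 0.0049) and the S2 gene AT3G57490 by 0.68 (limma adjusted p = 0.0076). In gun1-101 4 of the 111 were called higher and 3 lower, smaller shares than the 10.9% and 9.51% of all genes. The S27 gene AT2G45710 rose by 1.05 (limma adjusted p = 0.014) and the L27 gene AT2G32220 by 0.58 (limma adjusted p = 0.034). The S24 gene AT5G28060 rose by 0.62 (limma adjusted p = 0.045). The S25 gene AT2G16360 fell by 1.13 (limma adjusted p = 0.012) and the S15 gene AT5G09490 by 0.49 (limma adjusted p = 0.022). The S16 gene AT5G18380 fell by 0.53 (limma adjusted p = 0.043). AT2G16360 and AT5G09490 were dim, with gun1-101 group means of 5.18 and 4.35 without and 4.04 and 3.86 with lincomycin. AT5G59240 was also dim, with Col-0 group means of 5.66 without and 4.57 with lincomycin. The median over all genes was 6.65.

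Of 39 listed ribosome biogenesis genes 14 were measured, with a median of 0.14 in Col-0. BRX1-1 (AT3G15460), for a factor of 60S assembly, was the 1 called lower there, by 0.57 (limma adjusted p = 0.012). WDR12 (AT5G15550) was the 1 called higher, by 0.50 (limma adjusted p = 0.026). Of all genes 7.19% were called lower and 7.15% higher, so these counts are near the background. No biogenesis gene was called in gun1-101 (median -0.04), where 20.4% of all genes were called. Of 37 listed translation factor and TOR pathway genes 9 were measured, and none was called in Col-0 (median 0.03). In gun1-101 AT2G18110, for a subunit of the elongation factor complex eEF1B, rose by 0.58 (limma adjusted p = 0.0059). It was the 1 of 9 called higher, close to the 10.9% of all genes. Of 37 listed nuclear genes for plastid ribosomal proteins 8 were measured. All 8 were called lower in Col-0 (median -0.98), against 7.19% of all genes. Among them PRPL34 (AT1G29070) fell by 1.11 (limma adjusted p = 0.00023) and PRPL3 (AT2G43030) by 0.96 (limma adjusted p = 0.0032). PRPL19 (AT5G47190) fell by 1.38 (limma adjusted p = 0.0071). None of the 8 was called in gun1-101 (median 0.12). In the interaction 4 of these 8 were called higher, against 0 of the 40 cytosolic genes and 8 of the 111 others, where 4.01% of all genes were called higher.

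Markers of tissues were sparse among the measured genes. No vascular marker (of 6), 1 meristem marker of 5 (CLV3, between 2.99 and 3.26 in group means) and 2 root markers of 14 (PYK10 and EXPA7) were measured. PYK10 stayed within 12.21 and 12.33 in group means, with differences of -0.02 in Col-0 and -0.12 in gun1-101. EXPA7 had differences of -0.06 in Col-0 and 0.53 in gun1-101, and its SD in the Col-0 controls was 0.89 (n = 3). None of these was called, and the root markers had opposite signs in gun1-101. MCM7, the 1 measured marker of dividing cells of 19, fell in both genotypes, by 0.68 in Col-0 (limma adjusted p = 0.0038) and by 1.11 in gun1-101 (limma adjusted p = 0.00026). Of 3 epidermal markers of 8, the stomatal lineage genes SPCH and FAMA fell in Col-0, by 0.70 and 0.76 (limma adjusted p = 0.027 and 0.019), and MUTE rose in gun1-101 by 0.78 (limma adjusted p = 0.032). The list did not move as one, since MUTE was at -0.05 in Col-0, and SPCH and FAMA were at -0.13 and 0.03 in gun1-101, none of them called. LHCB1.5, the 1 leaf marker of 11, fell by 4.36 in Col-0 and was at -0.50 in gun1-101, not called. From this 1 transcript, a response of the gene itself and a change in the share of leaf cells cannot be told apart. Of 3 seed reserve markers of 16, PAP85 rose in both genotypes, by 2.42 and 1.86 (limma adjusted p = 0.00063 and 0.0034). M17 rose by 2.43 in Col-0 (limma adjusted p = 0.0099) and was at -0.38 in gun1-101, not called, with an interaction of -2.81 (limma adjusted p = 0.045). ICL, for the glyoxylate cycle enzyme isocitrate lyase, rose by 1.03 in gun1-101 (limma adjusted p = 0.020) and was at 0.83 in Col-0 (limma adjusted p = 0.058). Their part in the differences of the ribosomal protein genes was not tested.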

How the data were processed

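Total RNA of 12 seedling samples was hybridised to Affymetrix arrays as biotinylated cRNA, per the labels' protocols. The deposited values are log2 expression values per probe set, which the authors produced with Affymetrix Expression Console 1.3 and RMA, as the submitters' processing notes name them. RMA equalises arrays by quantiles, so a change shared by most transcripts is removed. Array design and batches: not given in the sources used here.

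Of 38408 probe sets, 16722 were paired with 1 gene, 759 with several and 20927 with none. The probe set with the highest mean was taken where a gene had more than 1 (148 genes), which left 16548 genes. No value was transformed further. With limma 3.58.1 (lmFit, eBayes; R 4.3.3), all 12 arrays entered a linear model holding a mean for each group, two-sided with Benjamini-Hochberg adjustment over 16548 genes; adjusted p-values of genes are from this fit unless an array is said to be left out. It had 8 residual and 3.89 prior degrees of freedom (prior SD 0.204), and the number of arrays limits the precision. Gene identifiers were looked up in RefSeq's gene table of TAIR10.1, which gives a symbol of its own for 1 of the 40 genes. Protein families and subunits follow the standard Arabidopsis ribosomal protein nomenclature by locus, written by hand, and not the tables. Plastid-encoded and mitochondrial ribosomal protein genes were not used here.

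The members, lists and settings were chosen with earlier results of these data known. Given in full were the 6 members with the smallest adjusted p called in each direction of a comparison, or the 3 with the smallest p where fewer than 3 were called, and up to 3 called genes of each other list. Other members named as examples were chosen after their values were seen. The labels number replicates 1 to 3 in every group and do not say that a number marks a shared sowing or day. Correlations of same-numbered arrays' deviations from their group means ran from -0.30 to 0.44, so the numbers were not taken as pairs. Alternatives were 2 normalisations, a filter on dim genes, the probe set rule, the features and samples fitted, array weights, an array covariate, trend and robust eBayes, a replicate block and leaving out arrays. The fit was tested on simulated data.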

Additional observations from a re-analysis of the deposited data

Results flagged for a closer look

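None of the 40 genes met a criterion for a closer look, but 8 of the 111 other cytosolic ribosomal protein genes did, because the lincomycin response differed between the genotypes by limma's interaction test. All had a negative log2 difference in Col-0 and a positive one in gun1-101, as had 70.3% of the 111 genes. They were picked by the interaction, the response in gun1-101 minus that in Col-0, which favours such signs. The S23 gene AT3G09680 had an interaction of 2.03 log2 units (limma adjusted p = 0.028), with -1.54 in Col-0 and 0.48 in gun1-101. The S27 gene AT2G45710 had an interaction of 1.63 (limma adjusted p = 0.023), with -0.58 and 1.05, and the L34 gene AT1G26880 one of 1.20 (limma adjusted p = 0.028), with -0.83 and 0.37.

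For the L27 genes AT2G32220 and AT3G22230 the interaction was 1.01 and 0.96 (limma adjusted p = 0.032 and 0.041). For the S14 gene AT3G52580 it was 0.96 (limma adjusted p = 0.041), for the S17 gene AT5G04800 it was 0.84 (limma adjusted p = 0.0495) and for the S2 gene AT3G57490 it was 0.83 (limma adjusted p = 0.033). Thus 5 of the 8 belong to the small and 3 to the large subunit, and their share of the 111 genes is to be read against 4.01% of all genes called higher in the interaction. Causes were not tested.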

How the results depend on the processing

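Numbers of called members depended on the settings more than the medians did, and the cause was not tested; the share of all genes called in each setting stands in brackets. In Col-0 1 was called (14.3%), and 5 with arrays shifted to the same median (13.7%), 3 after quantile normalisation (14.3%), 5 among brighter genes (25.6%), 0 with every probe set (11.2%), 0 in a fit of the compared groups only (6.45%), 26 with array weights (29.4%), 25 without both arrays that stand apart (28.9%; median -0.53) and 6 with trend and robust eBayes (15.1%). In gun1-101 4 were called (20.4%), and 2 with every probe set (15.1%), 13 in a fit of the compared groups only (27.7%), 15 with array weights (34.3%), 1 with the array covariate (17%), 18 without both arrays (31.1%) and 7 with trend and robust eBayes (21.1%). For the untreated genotypes 0 (0.0181%) became 14 with array weights (12.1%) and 18 without both arrays (17.2%), and with lincomycin 0 (9.58%) became 18 (26.5%) and 20 (24.7%). In the interaction 0 (6.97%) became 9 among brighter genes (20.3%), 23 with array weights (33.4%), 24 without both arrays (32.5%; median 0.66) and 6 with trend and robust eBayes (8.83%), and the median was 0.28 with the array covariate. The lowest array weights fell on the same arrays that stand apart, 0.27 for Col-0 control replicate 1 and 0.38 for Col-0 lincomycin replicate 3, where the next lowest was 0.71. Calls gained with array weights are therefore not separate from those gained by leaving these arrays out.

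Leaving out each array in turn gave 0 to 19 calls in Col-0 (8 without control replicate 1 and 19 without lincomycin replicate 3 of Col-0; medians -0.47 to -0.21). It gave 0 to 8 in gun1-101 (8 without Col-0 lincomycin replicate 3; medians 0.15 to 0.23), 0 to 3 for the untreated genotypes (3 without Col-0 control replicate 1; medians -0.30 to -0.17), 0 to 13 with lincomycin (13 without Col-0 lincomycin replicate 3; medians 0.16 to 0.35) and 0 to 20 in the interaction (20 and 19 without those same arrays; medians 0.37 to 0.57). No median, and no named member in the comparison that named it, changed sign under any setting tried. Of the values of named members, 266 kept their side of the threshold, 51 passed it and 48 lost it. Only the 1 member called in Col-0 and the 4 called in gun1-101 could lose a call, so all 48 losses fall on them. Values that kept their side include those of members not called in either fit. With a replicate block, which rests on shared numbers alone, 0 members were called in Col-0 and 2 in the interaction.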
